A study of Homo sapiens with 9 samples.

Results

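AKIRIN1, ZNF582, OSR2 and EPN1 are 4 of the 47753 gene names on a human expression array, and they were measured in OEC-M1 cells after loss of GATA3 or of HIF-1α. They were chosen by the difference between GATA3 knockdown and si-Control, in which AKIRIN1 and ZNF582 lay among the largest rises and OSR2 and EPN1 among the largest falls. The 4 genes had 7 of the 58201 probes: 3 for AKIRIN1, 2 for ZNF582 and 1 each for OSR2 and EPN1. On 6 of the 7 the spot was well above background throughout at least 1 group, and the exception was the second ZNF582 probe. OEC-M1 is an established line of human oral squamous cell carcinoma. Each of the 3 groups had 3 arrays, from cells transfected with a non-targeting siRNA (si-Control), a GATA3 siRNA or a HIF-1α siRNA for 72 h. The cells of all 9 samples were grown in RPMI with fetal bovine serum and kept at 1% O2 for 18 h, so that every value, the controls included, is a value in hypoxia. Of the siRNAs the study had for each target, its supplement names 1 for the array comparison, and no source used here says that the 3 arrays of a group came from separate cultures, so that P values measure the spread between these arrays, which may be technical.

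GATA3 is a zinc finger transcription factor that binds the core letters GATA, and HIF-1α is the oxygen-regulated subunit of HIF-1, which switches on genes for survival and metabolism in low oxygen. AKIRIN1 is a small nuclear protein without a DNA-binding domain that is thought to link transcription factors to chromatin remodelling complexes such as SWI/SNF. ZNF582 is a zinc finger protein with a KRAB domain, a class that recruits TRIM28 and histone methylation to silence DNA, and its gene is a known site of promoter methylation in carcinomas of the cervix and mouth. OSR2 is a zinc finger transcription factor of the odd-skipped family that is needed for growth of the palate and for tooth patterning. EPN1 is an epsin, an adaptor that binds membrane lipid, ubiquitinated cargo and clathrin at the sites where Notch ligands and growth factor receptors are taken up.

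The targeted transcripts were lower in the cells that were meant to lack them. GATA3 fell by 1.27 (SE 0.34) on the log2 scale with its own siRNA, and HIF1A, on the brighter of its 2 probes, fell by 2.32 (SE 0.35) with the HIF-1α siRNA. In the other knockdown GATA3 differed from si-Control by −0.37 (SE 0.34) and HIF1A by −0.05 (SE 0.35), and neither passed the test. Values throughout are quantile-normalized log2 intensities, errors are SD over 3 arrays or the standard error (SE) of a limma fit over all 9 arrays, and a gene is said to have passed at an unadjusted P of 0.05, the threshold of the study. After Benjamini-Hochberg adjustment 0 of 58161 probes passed in GATA3 knockdown, against 1827 without adjustment, and 1 of 57741 passed in HIF-1α knockdown, against 3080. Arrays with the same replicate number shared a slide, and with the slide as a block 2412 gene names passed without adjustment in place of 1410 in GATA3 knockdown, and 4053 in place of 2466 in HIF-1α knockdown. The median spot intensity was 992.5 to 2807.5 on the si-Control arrays, 1410 to 2452 with GATA3 siRNA and 2132 to 3560 with HIF-1α siRNA, the lowest being si-Control replicate 3. Of the markers of epithelium, 10 of 11 were well above background on every si-Control array, but so were 4 of 5 fibroblast, 4 of 4 leukocyte and 3 of 3 endothelial markers, and 39538 of all 47753 gene names. The scanner's flag therefore did not separate cell types on these arrays.

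Because GATA3 and HIF-1 bind DNA, the promoters are shown with the letters that these factors are known to recognise in capitals. For GATA factors these were AGATAA and the form AGATAG, as well as TGATAA and the form TGATAG. For HIF-1 they were ACGTG and the form GCGTG. Both strands were searched. These 2 sets of letters do not overlap each other. Each sequence runs 5′ to 3′ from 250 bases before the start site to 50 bases after it, as given by RefSeq for GRCh38.p14. The AKIRIN1 promoter lies at chr1:38991026-38991325 on the plus strand, the ZNF582 promoter at chr19:56393485-56393784 on the minus strand and the EPN1 promoter at chr19:55674976-55675275 on the plus strand. No promoter was read for OSR2.
AKIRIN1: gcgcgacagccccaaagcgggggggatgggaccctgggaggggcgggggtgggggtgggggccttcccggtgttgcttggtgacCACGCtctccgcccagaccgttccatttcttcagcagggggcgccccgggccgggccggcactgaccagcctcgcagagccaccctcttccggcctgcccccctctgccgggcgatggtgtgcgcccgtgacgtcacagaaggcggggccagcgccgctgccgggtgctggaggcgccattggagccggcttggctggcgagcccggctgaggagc
ZNF582: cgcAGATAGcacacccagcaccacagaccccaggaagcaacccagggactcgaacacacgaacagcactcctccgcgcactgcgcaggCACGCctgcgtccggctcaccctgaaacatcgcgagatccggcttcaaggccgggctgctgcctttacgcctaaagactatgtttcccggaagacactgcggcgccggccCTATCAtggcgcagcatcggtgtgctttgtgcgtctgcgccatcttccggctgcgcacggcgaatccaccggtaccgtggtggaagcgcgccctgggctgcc
EPN1: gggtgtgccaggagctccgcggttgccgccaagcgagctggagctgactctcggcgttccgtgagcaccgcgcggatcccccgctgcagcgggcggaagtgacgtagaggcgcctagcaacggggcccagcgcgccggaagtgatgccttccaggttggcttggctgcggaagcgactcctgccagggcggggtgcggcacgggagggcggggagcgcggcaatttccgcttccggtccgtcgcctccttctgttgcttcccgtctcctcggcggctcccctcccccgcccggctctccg
Of 35116 RefSeq promoters of this length, 25.0% held a GATA match and 48.4% a HIF-1 match. ZNF582 held 2 GATA matches, AGATAG in the printed direction from −247 to −242 and TGATAG on the other strand from −52 to −47, counted from the start site. It also held 1 HIF-1 match, GCGTG on the other strand from −162 to −158. AKIRIN1 held 0 GATA matches and 1 HIF-1 match, GCGTG on the other strand from −166 to −162. EPN1 held 0 of either. The 3 promoters were rich in G and C, at 74.3% for AKIRIN1, 64.7% for ZNF582 and 72.0% for EPN1 against a median of 58.7%. They held 27, 30 and 37 CG pairs respectively, against a median of 14. Of all promoters 71.8%, 77.6% and 88.7% held fewer pairs than AKIRIN1, ZNF582 and EPN1, so such counts are common. A match is a run of letters, and binding was not measured here.

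AKIRIN1 was the member with the largest difference in GATA3 knockdown. On its brightest probe, A_23_P256148, the log2 intensity was 11.38, 12.42 and 13.05 on the si-Control arrays, 14.66, 14.41 and 15.36 with GATA3 siRNA, and 12.42, 13.77 and 13.30 with HIF-1α siRNA, in the order of replicates 1, 2 and 3. The lowest GATA3 knockdown array stood above the highest array of both other groups, whereas the si-Control and HIF-1α knockdown arrays overlapped. The group means were 12.28 ± 0.84 (SD, n = 3) in si-Control, 13.16 ± 0.69 (SD, n = 3) in HIF-1α knockdown and 14.81 ± 0.49 (SD, n = 3) in GATA3 knockdown. The difference that chose the gene was 2.52 (SE 0.48), or 5.75-fold higher than si-Control, and no test of it is given. Within slides 1, 2 and 3 the GATA3 knockdown difference was 3.28, 1.99 and 2.31. Before any normalization the median intensity of the spot was 3623.5, 5609.5 and 4357 in si-Control, 17918, 26603 and 31201.5 in GATA3 knockdown and 9561, 13574 and 12283 in HIF-1α knockdown. In these raw values every HIF-1α knockdown spot lay above every si-Control spot, unlike after normalization. All 9 spots were well above background and none was saturated.

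**Figure D1:**
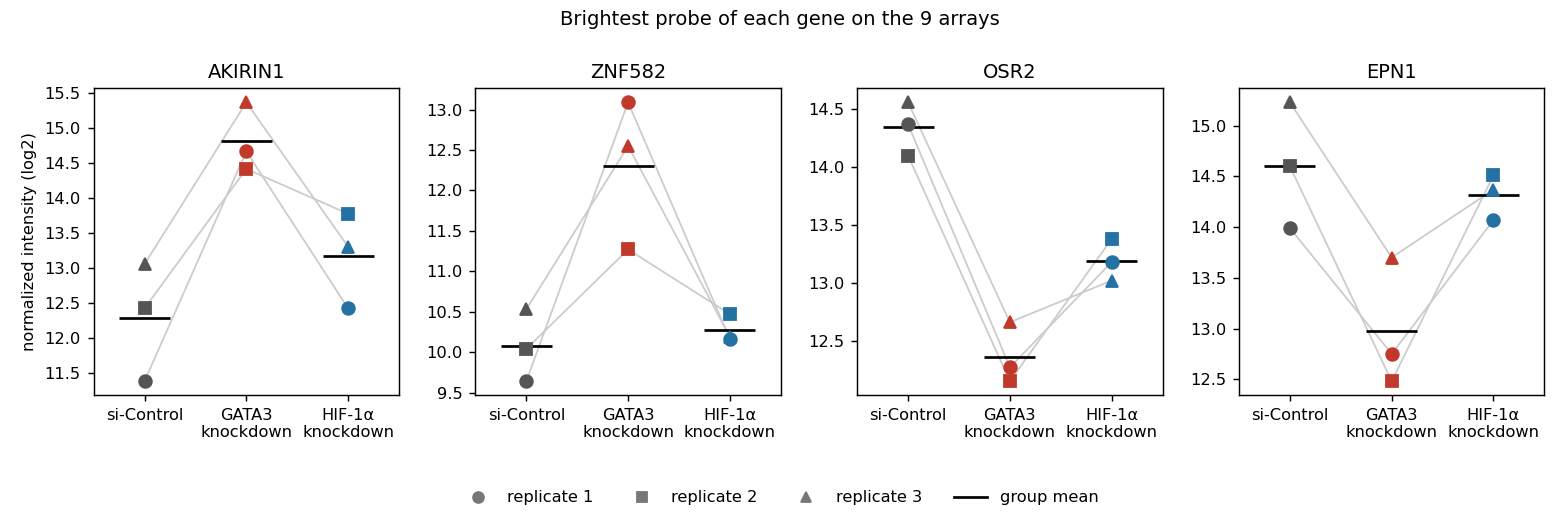
Normalized log2 intensity of the brightest probe of AKIRIN1, ZNF582, OSR2 and EPN1 (vertical axis, with its own range in each panel) in the 3 groups, with 1 point for each of the 9 arrays, grey lines joining arrays of 1 slide and black bars at group means. GATA3 knockdown stood apart from si-Control for all 4 genes, which is how they were chosen. For OSR2 the HIF-1α knockdown arrays, at 13.02 to 13.38, also lay clear of si-Control after normalization, but not in raw intensity. The share of all probes that do so was not counted.

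The other probes of AKIRIN1 gave the same order of groups. A_33_P3294404 read 11.02, 12.11 and 12.74 in si-Control, 14.52, 14.19 and 15.05 in GATA3 knockdown and 11.85, 13.46 and 12.94 in HIF-1α knockdown. A_33_P3354267 read 9.96, 10.98 and 12.24, then 13.70, 13.51 and 14.21, and then 10.87, 12.48 and 12.28 in the same 3 groups. Their GATA3 knockdown differences were 2.63 (SE 0.50) and 2.75 (SE 0.58). Over the 9 arrays the 3 probes correlated with each other at r = 0.989 to 0.997, a description over arrays that share their groups and their RNA. All 3 probes were assigned to the transcript NM_024595.

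In HIF-1α knockdown AKIRIN1 did not pass the test. Its brightest probe differed from si-Control by 0.88 (SE 0.48; 95% interval −0.19 to 1.94; limma adjusted P = 0.828), and the other 2 probes by 0.79 (SE 0.50) and 0.82 (SE 0.58). This comparison uses the same si-Control arrays as the one that chose the gene, and so do those of the other 3 genes. The within-slide differences were 1.04, 1.34 and 0.25. With the slide as a block the difference of 0.88 passed the unadjusted test (SE 0.34; limma adjusted P = 0.556), whereas the other 2 probes did not pass with the block (0.79, SE 0.37, and 0.82, SE 0.39). The brightest probe also passed at 1.26 once si-Control replicate 3 was left out and at 1.25 once HIF-1α knockdown replicate 1 was. It did not pass in the other 7 such fits, the lowest being 0.43 without si-Control replicate 1. The other 2 probes each passed in 2 of 9 such fits as well, within 0.32 to 1.24 and 0.27 to 1.41. For the brightest probe the interval of the main fit held both 0 and a rise of 1.94.

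AKIRIN2 is the other human akirin and the better known partner in transcription and in nuclear import of proteasomes. Its log2 intensity was 12.36, 12.99 and 13.46 in si-Control, 13.35, 12.95 and 13.99 in GATA3 knockdown and 12.55, 13.16 and 12.91 in HIF-1α knockdown. The 3 groups overlapped. AKIRIN2 differed from si-Control by 0.49 (SE 0.36; 95% interval −0.31 to 1.29) in GATA3 knockdown and by −0.06 (SE 0.36; 95% interval −0.86 to 0.74) in HIF-1α knockdown and did not pass in either.

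AKIRIN2 also belongs to a list of 24 akirin partners and SWI/SNF subunits, of which 23 were measured. In GATA3 knockdown 1 of 23 passed as higher and 1 as lower, against 1.59% and 1.36% of all gene names, and the median difference was 0.08 against −0.02 for all. SMARCD1, a subunit that ties SWI/SNF to transcription factors, fell by 1.26 (SE 0.35) on the log2 scale and passed in 9 of 9 fits that each left out 1 array. ARID1A, the subunit that is often mutated in carcinomas, rose by 0.93 (SE 0.37), but it passed in 5 of 9 such fits and was lost without si-Control replicate 1 or 2 or without GATA3 knockdown replicate 1 or 3, where the 9 fits ranged from 0.66 to 1.34. In HIF-1α knockdown 0 of 23 passed in either direction, against 1.96% higher and 3.25% lower among all gene names, and the median was −0.12 against −0.01. Under scaling to the 75th percentile of the processed signal 78.1% of the genes that passed in GATA3 knockdown were higher, against 53.8% in the main fit, and 53.4% against 37.6% in HIF-1α knockdown.

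ZNF582 was measured by 1 bright and 1 dim probe. On the bright probe, A_33_P3412055, the log2 intensity was 9.64, 10.04 and 10.53 in si-Control, 13.09, 11.27 and 12.55 in GATA3 knockdown and 10.16, 10.47 and 10.19 in HIF-1α knockdown. All 3 GATA3 knockdown arrays stood above the other 6, while the HIF-1α knockdown arrays fell within the range of si-Control. The means were 10.07 ± 0.45, 12.30 ± 0.94 and 10.27 ± 0.17 (SD, n = 3 each), in the same order. The choosing difference was 2.23 (SE 0.43), or 4.70-fold. It was uneven between slides, at 3.45, 1.23 and 2.02, and replicate 2 was the lowest of the GATA3 knockdown arrays. The spot's raw median intensity was 1083, 1079.5 and 684.5 in si-Control, 6177.5, 3016.5 and 4211 in GATA3 knockdown and 2068, 1453 and 1418.5 in HIF-1α knockdown. In these raw values the HIF-1α knockdown spots lay above those of si-Control, unlike after normalization.

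In HIF-1α knockdown ZNF582 differed from si-Control by 0.20 (SE 0.43; 95% interval −0.76 to 1.16; limma adjusted P = 0.913) and did not pass. The within-slide differences were 0.52, 0.43 and −0.35, so the slides did not share a direction. Without si-Control replicate 1 the difference was −0.01.

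The dim probe of ZNF582, A_23_P395464, gave no level to set beside the bright one. It was flagged as well above background on 3 arrays, si-Control replicate 1, GATA3 knockdown replicate 2 and HIF-1α knockdown replicate 1, and on all 3 the spot was also marked non-uniform and was left out. On the remaining 6 arrays it was not well above background. It read 7.75 and 7.68 in si-Control, 7.72 and 7.12 in GATA3 knockdown and 7.31 and 7.30 in HIF-1α knockdown, and no fold is given. The GATA3 knockdown difference of ZNF582 thus rests on 1 probe.

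**Figure D2:**
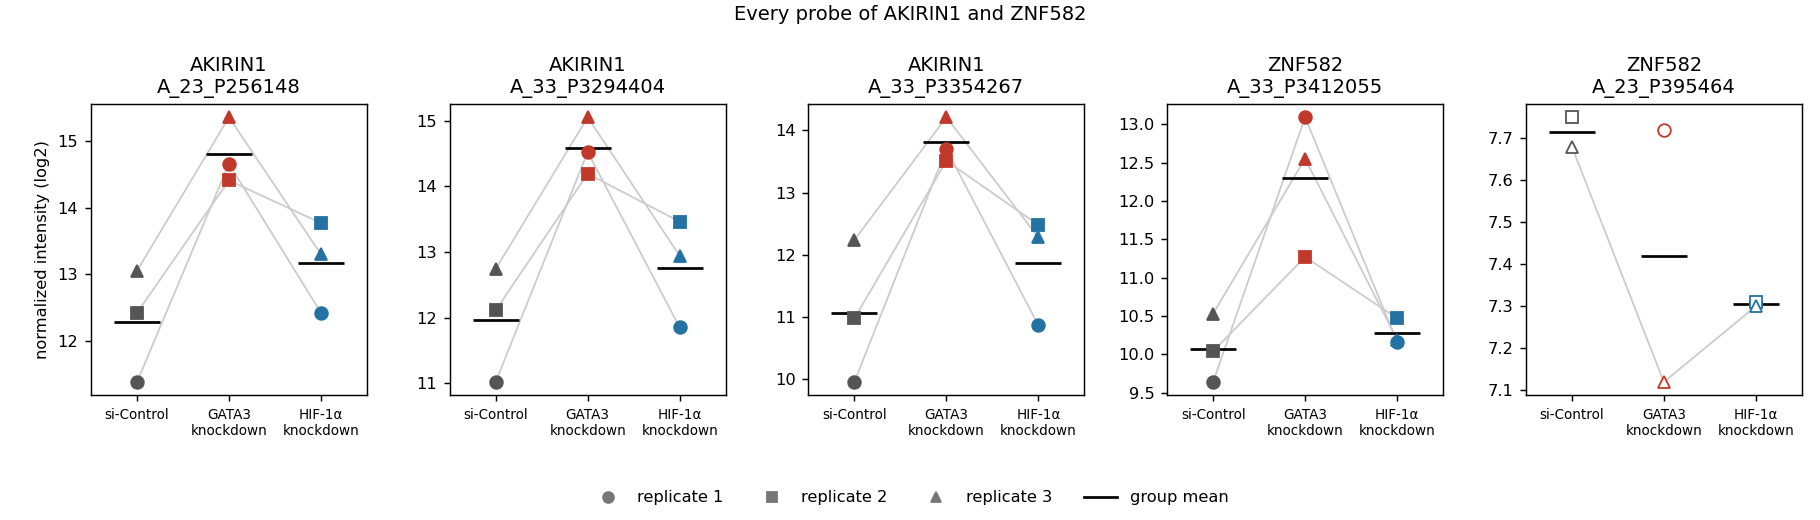
Normalized log2 intensity (vertical axis, with its own range in each panel) of the 3 AKIRIN1 probes and the 2 ZNF582 probes in the 3 groups, with 1 point for each array that was kept, grey lines joining arrays of 1 slide and black bars at group means. Filled points were well above background and hollow points were not: the AKIRIN1 probes show the same order of groups, and the second ZNF582 probe, with 6 hollow points between 7.12 and 7.75, shows no level above background.

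ZNF582 lies among zinc finger genes on chromosome 19, and its neighbours there were read beside it. ZNF582-DT, a noncoding transcript from the opposite strand next to ZNF582, was measured by 2 probes, and several of its spots were non-uniform. Its brighter probe kept 2 arrays a group and read 11.30 and 9.87 in si-Control, 11.21 and 11.42 in GATA3 knockdown and 11.42 and 11.52 in HIF-1α knockdown. It differed from si-Control by 0.73 (SE 0.48) and 0.89 (SE 0.48) in the 2 knockdowns and did not pass. Its dimmer probe differed by −0.10 (SE 0.41) in GATA3 knockdown and by 1.17 (SE 0.45) in HIF-1α knockdown, and the second passed, with 2 arrays in si-Control and 2 in HIF-1α knockdown. On this probe only 1 of the 3 GATA3 knockdown arrays was well above background.

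Of a list of 22 zinc finger genes and transcripts of this cluster 21 were measured. In GATA3 knockdown 0 of 21 passed by limma's unadjusted P, against 1.59% of all gene names as higher and 1.36% as lower, and the median difference was −0.01. In HIF-1α knockdown 1 passed as higher and 0 as lower, against 1.96% and 3.25% of all, with a median of −0.18. That gene, ZIM2, which lies beside the imprinted PEG3, rose by 0.84 (SE 0.37), but it passed in 4 of 9 fits that left out 1 array (0.44 to 1.12) and was lost without si-Control replicate 3, GATA3 knockdown replicate 1 or any of the 3 HIF-1α knockdown arrays. A second list held 24 cofactors of KRAB zinc fingers and of heterochromatin, all of them measured, TRIM28 and SETDB1 among them. In GATA3 knockdown 0 of 24 passed by limma's unadjusted P, beside 1.59% and 1.36% of all gene names in the 2 directions, and the median was 0.23. In HIF-1α knockdown 0 passed as higher and 1 as lower, beside 1.96% and 3.25% of all, and the median was −0.24. The count as lower ranged from 0 to 4 over the alternatives, at 2 with the slide as a block and 4 without si-Control replicate 1. The gene was TASOR, a subunit of the HUSH silencing complex, at −0.92 (SE 0.41). It passed in 2 of 9 fits that left out 1 array (−1.20 to −0.53), those without si-Control replicate 1 and without HIF-1α knockdown replicate 2.

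OSR2 was lower than si-Control in both knockdowns. Its log2 intensity was 14.37, 14.10 and 14.56 in si-Control, 12.27, 12.15 and 12.66 in GATA3 knockdown and 13.18, 13.38 and 13.02 in HIF-1α knockdown. The 3 groups did not overlap, and HIF-1α knockdown lay between the other 2. The share of all probes whose groups stand apart in this way was not counted, so nothing is read from the separation. The choice itself favoured a gap between GATA3 knockdown and si-Control. HIF-1α knockdown and si-Control were also apart on the dimmer EPN2 probe and on both ZNF582-DT probes, the latter with 2 arrays a group. They were apart on the dim ZNF582 probe too, with 2 arrays a group and no kept array well above background. The OSR2 means were 14.34 ± 0.23, 12.36 ± 0.27 and 13.19 ± 0.18 (SD, n = 3 each), the smallest SDs in si-Control and GATA3 knockdown among the brightest probes of the 4 genes. The choosing difference was −1.98 (SE 0.25), or 3.95-fold lower with GATA3 siRNA, and it was −2.10, −1.95 and −1.90 within slides 1, 2 and 3.

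In HIF-1α knockdown OSR2 fell by 1.15 (SE 0.25; 95% interval −1.69 to −0.60) on the log2 scale, or 2.21-fold. It passed the unadjusted test, as did 3.43% of all probes in the same direction and 1.91% in the other. It did not pass after adjustment over all probes (limma adjusted P = 0.488). The si-Control arrays also took part in choosing OSR2 for a fall, and high values there lower both differences. Neither this pass nor those in the fits below is therefore independent of the choice. The within-slide differences were −1.18, −0.71 and −1.54, and OSR2 passed in 9 of 9 fits that each left out 1 array, between −1.27 and −1.04. Of the 7 probes of the 4 genes it was the only one that passed in this comparison in the main fit. The raw median intensity was 31863, 17661 and 12807 in si-Control, 3606.5, 5545 and 4504 in GATA3 knockdown and 16279, 10488.5 and 10146 in HIF-1α knockdown. Before normalization between arrays the si-Control and HIF-1α knockdown spots therefore overlapped, while those of GATA3 knockdown lay below all the others. In the GATA3 knockdown comparison 1.77% of all probes passed as higher and 1.38% as lower, and nothing is read from them for the 4 genes, which were chosen there.

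OSR1, the other odd-skipped gene of the human genome, was well above background on 2 of 9 arrays, 1 of which was left out as non-uniform, and has no level to compare. Of 30 genes of palate and tooth development, all measured, 0 passed as higher and 1 as lower in GATA3 knockdown, beside 1.59% and 1.36% of all gene names, with a median of −0.14. This count was unsteady: it was 3 higher and 0 lower with the 75th percentile scaling of the processed signal or the deposited log2 values, and 1 higher and 5 lower without si-Control replicate 3. That gene, FGFR2, a receptor for fibroblast growth factors in epithelium, was at −0.64 (SE 0.27), and it passed in 3 of 9 fits that left out 1 array (−0.75 to −0.57), those without si-Control replicate 3 or HIF-1α knockdown replicate 1 or 2. In HIF-1α knockdown, where 29 were tested, 0 passed as higher and 3 as lower, beside 1.96% and 3.25% of all, with a median of 0.06. The 3 became 5 without si-Control replicate 1. FOXD1, a forkhead factor of facial mesenchyme, fell by 1.76 (SE 0.52) and passed in 9 of 9 fits that left out 1 array. SOX9, a factor of chondrocytes and epithelial progenitors, fell by 1.23 (SE 0.43) and was lost without si-Control replicate 3 or HIF-1α knockdown replicate 1, in fits that ranged from −1.61 to −0.83. In GATA3 knockdown the differences of FOXD1 and SOX9 were −0.04 (SE 0.52) and −0.34 (SE 0.43), and neither passed.

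EPN1 was lower in GATA3 knockdown and close to si-Control in HIF-1α knockdown. Its log2 intensity was 13.99, 14.60 and 15.23 in si-Control, 12.75, 12.48 and 13.70 in GATA3 knockdown and 14.07, 14.51 and 14.37 in HIF-1α knockdown. All 3 GATA3 knockdown arrays stood below the other 6, and the HIF-1α knockdown arrays fell inside the range of si-Control. The means were 14.61 ± 0.62, 12.98 ± 0.64 and 14.32 ± 0.22 (SD, n = 3 each). The choosing difference was −1.63 (SE 0.39), or 3.09-fold lower, and it was −1.23, −2.12 and −1.53 within slides. The raw median intensity was 24400, 25047.5 and 21060 in si-Control, 4960, 6959.5 and 9603 in GATA3 knockdown and 29829, 22258.5 and 25883.5 in HIF-1α knockdown.

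In HIF-1α knockdown EPN1 differed from si-Control by −0.29 (SE 0.39; 95% interval −1.16 to 0.58; limma adjusted P = 0.861) and did not pass. The within-slide differences were 0.09, −0.09 and −0.86, and without si-Control replicate 3 the difference was 0.03. A fall of the size seen for OSR2 lay just inside this interval.

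The other epsins were EPN2, which is expressed broadly, and EPN3, which is found in epithelium and at wounds. EPN2 read 14.47, 14.87 and 14.99 in si-Control, 14.18, 14.53 and 14.62 in GATA3 knockdown and 14.29, 14.37 and 14.76 in HIF-1α knockdown on its brighter probe. It differed from si-Control by −0.33 (SE 0.25; 95% interval −0.90 to 0.24) and −0.30 (SE 0.25; 95% interval −0.87 to 0.26) in the 2 knockdowns and did not pass. EPN3 read 9.72, 10.12 and 10.42 in si-Control, 9.75, 8.51 and 8.93 in GATA3 knockdown and 10.24, 10.71 and 10.23 in HIF-1α knockdown. GATA3 knockdown replicate 1 lay within the si-Control range and replicate 3 was not well above background. EPN3 fell by 1.03 (SE 0.34) in GATA3 knockdown and passed the unadjusted test, but its within-slide differences were 0.03, −1.61 and −1.49, and it was lost without GATA3 knockdown replicate 2, at −0.75. In HIF-1α knockdown it was at 0.31 (SE 0.34) and did not pass.

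**Figure D3:**
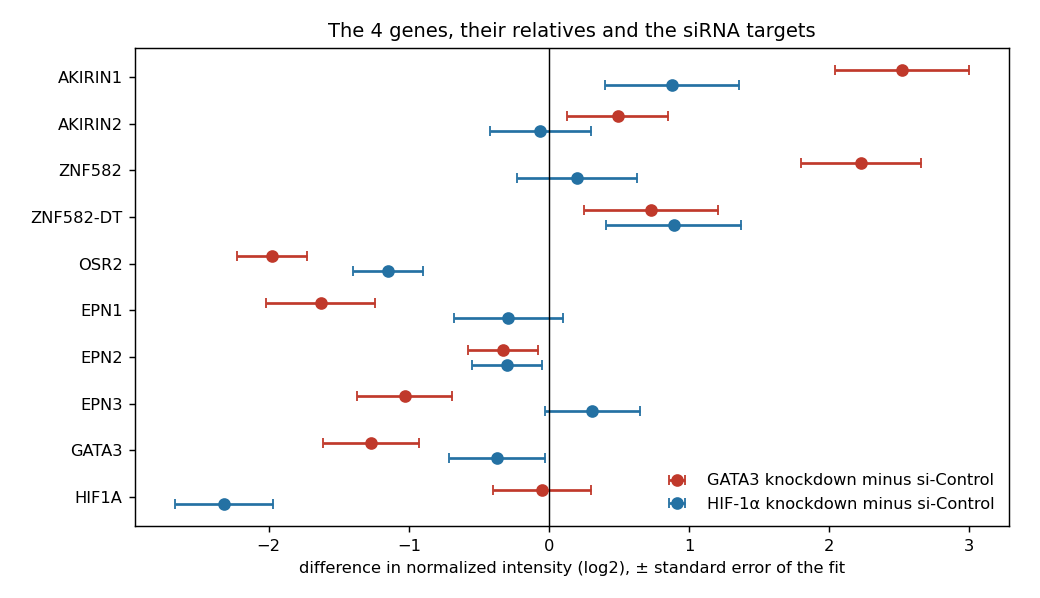
Difference in normalized log2 intensity from si-Control (horizontal axis) for the brightest probe of AKIRIN1, ZNF582, OSR2 and EPN1, their relatives and the siRNA targets, with GATA3 knockdown in red, HIF-1α knockdown in blue and bars of 1 standard error of the limma fit (3 arrays a group, 2 for ZNF582-DT). The 4 genes were chosen by the red values, and among them the blue value of OSR2, −1.15, lies farthest from 0. Red and blue values share the si-Control arrays.

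The epsins work with the wider clathrin machinery, of which a list of 40 genes had 39 measured, EPN2 and EPN3 among them. In GATA3 knockdown 1 of 39 passed as higher and 2 as lower, beside 1.59% and 1.36% of all gene names, with a median of −0.02. BMP2K, a kinase related to the clathrin adaptor kinase AAK1, was at 1.18 (SE 0.53), but passed in 2 of 9 fits that left out 1 array (0.70 to 1.70), those without si-Control replicate 3 or GATA3 knockdown replicate 2. Besides EPN3, HIP1R, which links clathrin coats to actin, fell by 0.61 (SE 0.23) and was lost without si-Control replicate 1 or GATA3 knockdown replicate 3 (−0.73 to −0.49 over the 9 fits). In HIF-1α knockdown 0 of 38 passed as higher and 2 as lower, beside 1.96% and 3.25% of all, with a median of −0.01. The 2 became 4 with the slide as a block and 5 without si-Control replicate 1. AP2B1, the beta subunit of AP-2, fell by 1.59 (SE 0.31) and passed in 9 of 9 such fits. ITSN1, an endocytic scaffold, was at −0.61 (SE 0.25) and was lost without si-Control replicate 2 or 3 or HIF-1α knockdown replicate 1 or 3 (−0.74 to −0.47). In GATA3 knockdown AP2B1 was at −0.53 (SE 0.31) and did not pass.

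**Figure D4:**
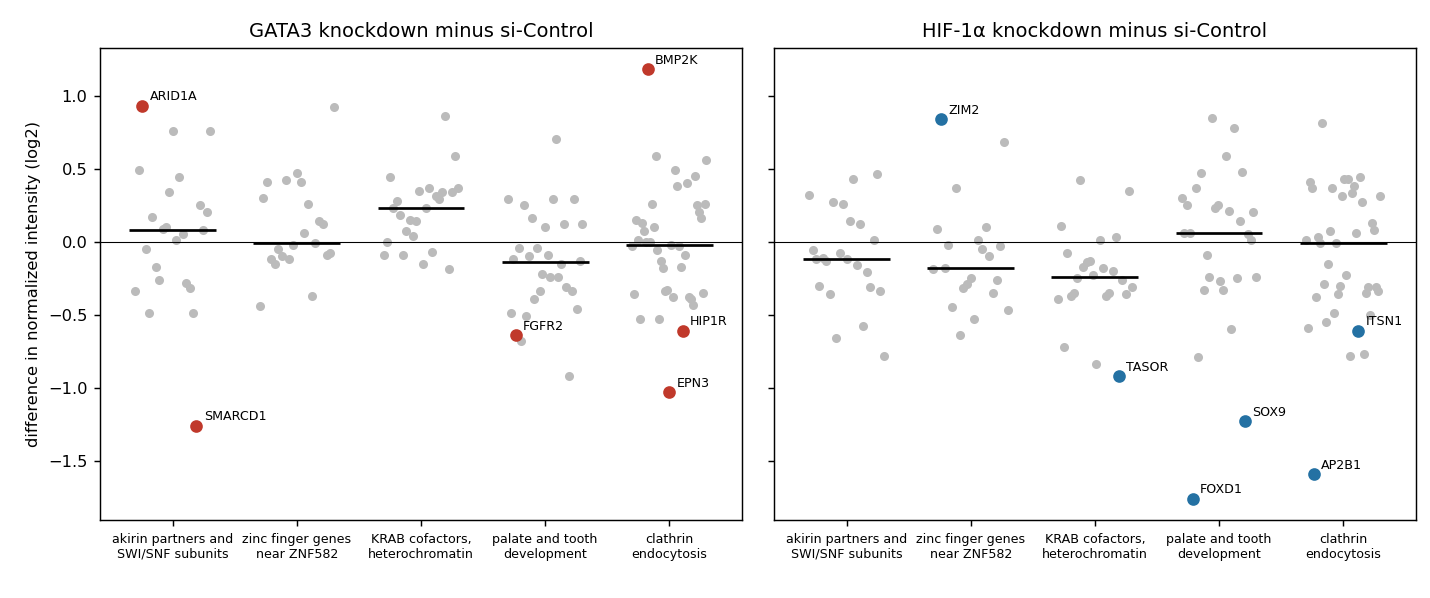
Difference in normalized log2 intensity from si-Control (vertical axis) of measured genes of 5 lists related to the 4 genes, in GATA3 knockdown (left) and HIF-1α knockdown (right), with 1 point for each gene shown, black bars at medians over all tested genes of a list and named, coloured points for genes that passed at an unadjusted P of 0.05. Few genes of any list passed, and the list medians lay between −0.24 and 0.23.

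The 2 measured genes on each side of each member in RefSeq's order were read next, a set added after the members' values had been seen. In GATA3 knockdown 0 of these 16 genes passed by limma's unadjusted P, beside 1.59% of all gene names as higher and 1.36% as lower. The 16 differences ran from −0.86 for GJA9, a connexin gene, to 0.73 for ZNF582-DT. In HIF-1α knockdown 0 of the 15 that were tested passed as higher and 2 as lower, beside 1.96% and 3.25% of all gene names. The 2 were GJA9 and MACF1. GJA9, which precedes AKIRIN1, fell by 1.33 (SE 0.45) and was lost without si-Control replicate 3 or HIF-1α knockdown replicate 2 (−1.76 to −0.94 over 9 fits). MACF1, which follows AKIRIN1 and links actin to microtubules, fell by 1.17 (SE 0.44) and was lost without si-Control replicate 3 or HIF-1α knockdown replicate 1 or 2 (−1.52 to −0.67). NDUFS5, a subunit of respiratory complex I that directly follows AKIRIN1, differed by −0.08 (SE 0.22) and 0.20 (SE 0.22) in the 2 knockdowns, and U2AF2, the splicing factor gene before EPN1, by 0.31 (SE 0.27) and −0.14 (SE 0.27). Neither passed.

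In the ranking that chose the genes, AKIRIN1 was the third and ZNF582 the fifth of 399 rises, and OSR2 was the third and EPN1 the fifth of 276 falls. These were named genes that passed, moved 1 way within all 3 slides and exceeded background clearly on all 3 si-Control arrays or all 3 GATA3 knockdown arrays. Genes at the other ranks, those above AKIRIN1 and OSR2 included, were not part of this set. The sixth rise was 2.20 against 2.23 for ZNF582, and the sixth fall was −1.57 against −1.63 for EPN1. The order of the groups differed between the 4 genes. In normalized values, si-Control and HIF-1α knockdown were neighbours that overlapped for AKIRIN1, ZNF582 and EPN1, and for OSR2 no neighbours overlapped. The share of all probes without overlap was not counted. In raw intensity of the brightest probes si-Control and HIF-1α knockdown overlapped for OSR2 and EPN1 and not for AKIRIN1 and ZNF582. GATA3 knockdown differed from HIF-1α knockdown by 1.65 (SE 0.48) for AKIRIN1, 2.03 (SE 0.43) for ZNF582, −0.84 (SE 0.25) for OSR2 and −1.34 (SE 0.39) for EPN1, given without a test because the GATA3 knockdown arrays chose the genes.

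Across the 9 arrays AKIRIN1 and ZNF582 correlated at r = 0.88 and OSR2 and EPN1 at r = 0.83. AKIRIN1 gave r = −0.78 against OSR2 and −0.52 against EPN1, and ZNF582 gave r = −0.71 against OSR2 and −0.63 against EPN1. These correlations describe arrays that fall into 3 groups, and the group differences that chose the genes enter them. The genes most like each member were sought among 16137 symbols well above background on at least 6 of 9 arrays. For AKIRIN1 they were RHOQ, a small GTPase (r = 0.980), ARPC5L, a subunit of the Arp2/3 actin complex (r = 0.975), and MRPL36, a mitochondrial ribosomal protein (r = 0.974). For ZNF582 they were UCN2, a urocortin peptide (r = 0.976), PIKFYVE, a lipid kinase of endosomes (r = 0.972), and LBR, a receptor for lamin B (r = 0.969). For OSR2 they were PLBD2, a lysosomal protein (r = 0.971), MGP, an inhibitor of calcification (r = 0.965), and MYO7B, a myosin of microvilli (r = 0.947). For EPN1 they included GATA3 (r = 0.976) and RAB1B, a GTPase of the secretory pathway (r = 0.972). The choice of the members enters these values too, and GATA3 was the target of the siRNA by which EPN1 was chosen.

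The sizes of these differences were unlike even where the patterns were alike. In GATA3 knockdown RHOQ differed from si-Control by 1.51, MGP by −3.04 and PLBD2, the closest to OSR2, by −0.49. In HIF-1α knockdown the same genes differed by 0.46, −1.44 and −0.23. The symbols least like the members were ELOB for AKIRIN1 (r = −0.959), ARAP2 for ZNF582 (r = −0.963), and DLL3, an inhibitory Notch ligand, for both OSR2 (r = −0.926) and EPN1 (r = −0.904).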

How the data were processed

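Labelled cDNA from 9 OEC-M1 samples was hybridized to Agilent arrays of 1 colour, with 3 arrays for each of 3 groups, and Agilent Feature Extraction 10.5.1.1 read them, per the labels. The deposited scanner files give intensity values for each spot with flags. A deposited series table of log2 values equals the log2 processed signal less 1 constant per array and served as an alternative. The methods of the study name limma, quantile normalization and an unadjusted P of 0.05.

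The median spot signal was background-corrected here with normexp (offset 50), spots marked non-uniform were left out (0.1% to 8.7% of spots per array), control spots were dropped, arrays were quantile normalized and spots averaged by probe. limma 3.58.1 in R 4.3.3 was fitted to all 9 arrays with Benjamini-Hochberg adjustment over all probes, after the procedure was tested on simulated data. Probes were named by RefSeq accession (31104 of 58201), and the brightest probe stands for a gene in lists. Named were the 4 genes, their paralogs, the siRNA targets, up to 3 genes that passed per list and direction, and the 3 most alike symbols and 1 least alike by r. Genes and lists were chosen with earlier results of these data known. The number of arrays limits precision. Alternatives changed scaling, background, filters, replicate block, samples and moderation. RefSeq assembly GRCh38.p14 gave gene order and promoters. Some genes that the naming rule picked are not reported here.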

Additional observations from a re-analysis of the deposited data

How the results depend on the processing

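In GATA3 knockdown, which chose the genes, AKIRIN1 ranged from 2.07 to 2.91, ZNF582 from 1.84 to 2.75, OSR2 from −2.13 to −1.87 and EPN1 from −1.99 to −1.31 over 20 alternatives. The choice required 1 direction within all 3 slides, so a steady sign was largely set in advance and nothing is read from it. In HIF-1α knockdown OSR2 passed in 20 of 21 alternatives. The exception was the adjusted P as the rule, at −1.15. All of these fits use si-Control arrays that took part in choosing OSR2, so the passes are not independent of the choice. With fits that each left out 1 array, AKIRIN1 ranged from 0.43 to 1.26, ZNF582 from −0.01 to 0.43, OSR2 from −1.27 to −1.04 and EPN1 from −0.60 to 0.03. ZNF582 changed sign at −0.01 without si-Control replicate 1, and EPN1 at 0.03 without si-Control replicate 3. The cause was not tested. The dim ZNF582 probe carries no level, since no array kept for it cleared background: its fitted GATA3 knockdown difference was 0.00 without replicate 3 of that group and −0.59 to 0.00 over these fits.

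With the replicate block AKIRIN1 passed in HIF-1α knockdown at 0.88, and the block changed no other call of the 4 genes. Arrays with the same number shared a slide. Their deviations from the group means correlated at r = 0.26, 0.67 and 0.81 between si-Control and GATA3 knockdown, at 0.71, 0.10 and 0.11 between si-Control and HIF-1α knockdown and at 0.42, −0.24 and 0.16 between the knockdowns, for numbers 1, 2 and 3. The block moved the gene names that passed from 1410 to 2412 in GATA3 knockdown and from 2466 to 4053 in HIF-1α knockdown. Without si-Control replicate 3 they were 6009 and 1648, and without si-Control replicate 1 they were 1094 and 4850. After 75th percentile scaling of the processed signal, 3037 passed in GATA3 knockdown, of which 78.1% were higher, and 2878 passed from the log2 values the authors deposited, of which 76.2% were higher. With normexp and the 75th percentile 69.8% were higher. In HIF-1α knockdown 53.4%, 52.3% and 35.2% were higher. Fitting only the 6 arrays compared left 925 in GATA3 knockdown. In HIF-1α knockdown 1409 passed without its replicate 1 and 1529 without its replicate 3. Without GATA3 knockdown replicate 2, 2203 passed in GATA3 knockdown. List counts moved by more than 1.5 times: in GATA3 knockdown palate and tooth genes were 0 to 3 higher and 0 to 5 lower, SWI/SNF 0 to 3 and 0 to 2, clathrin 0 to 3 and 0 to 2, KRAB cofactors up to 2 higher and ZNF582's neighbours up to 2 higher. In HIF-1α knockdown the ranges lower were 0 to 5, 0 to 3, 0 to 5, 0 to 4 and 0 to 2 in the same order, and those higher 0 to 1. Signal over background limits the second ZNF582 probe and OSR1.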
